A study of Mus musculus with 2 samples.

Results

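CpG methylation was examined at 35 autosomal genes for transcription factors of the T-box, GATA and Sox families, of 55413 annotated genes in all. The list is one of gene names, and no measured value enters the rule for membership, although it was drawn up with earlier results of these data known. They comprised 14 T-box, 5 GATA and 16 Sox genes. The DNA came from myotubes, the multinucleate muscle cells formed in culture from the mouse C3H myoblast line. Cells received either a control small interfering RNA (siCon) or siH19, which targets the imprinted non-coding transcript H19, and genomic DNA was taken 48 h later. There was 1 library per group, so every test below compares 2 libraries and not 2 conditions, and no value has an error between cultures. The level of H19 itself was not measured in these libraries, and neither was the RNA of any gene below. The question of the study was whether lowering H19 alters methylation across the genome.

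T-box, GATA and Sox proteins bind DNA through a T-box domain, zinc fingers and an HMG box, respectively, and each family sets cell fates in the embryo. Most act in tissues other than mature muscle, such as heart, limb, blood, neural crest, endothelium and brain. Starts of many developmental regulators lie in CpG-dense sequence that is unmethylated in most cells, whereas CpGs inside gene bodies are often methylated.

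Methylation was read by reduced representation bisulfite sequencing, which samples CpG-rich fragments cut at CCGG by MspI and at TCGA by TaqαI. The siCon library held 104999613 reads summed over 5453019 CpG cytosines and the siH19 library 106372792 over 5266846. Cytosines were compared where both libraries had at least 5 reads and the CpG lay outside a cut site, which left 1850635 cytosines with a median depth of 24 in each library. These cytosines averaged 33.1% and 33.3% in siCon and siH19. A level below is the unweighted mean of the levels of the covered cytosines, each strand counted apart. The start window reached 1 kb either side of the annotated gene start, and the body was the remainder of the gene. At least 5 covered cytosines were required to test a region. This was met by 30 of the 35 start windows and 33 of the 35 bodies. The windows of Gata4, Tbx6, Tbx10 and Tbx19 held 1 to 4 covered cytosines and that of Sox6 held 0, while the bodies of Sox15 and Tbx6 held 0. Member windows held 1975 covered cytosines with median depths of 29 in siCon and 30 in siH19, and member bodies held 3857 with a median depth of 24 in each.

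The start windows spanned nearly the whole range of methylation. Taken as under 10%, from 10% to 50% and over 50%, the class was the same in both libraries at 8, 15 and 4 of them. The median member window was at 15% in siCon and 15.7% in siH19, against 4.60% and 4.73% over the 19476 windows tested in all genes. All members are autosomal protein-coding genes, and over the 13127 tested windows of such genes the medians were 2.23% and 2.34%. Of the 30 member windows, 9 were under 10% in siCon and 9 in siH19, and 4 and 5 were over 50%, a level passed by 16.1% and 16.5% of all windows. In both libraries 20 of the 30 were over 10%, against 7762 of the 19476 windows of all genes and 3625 of the 13127 of autosomal protein-coding genes. Taken by library, 40.8% of all windows passed that level in siCon and 41% in siH19. The member windows were also denser in CpG than most, with a median observed to expected CpG ratio of 0.695 against 0.579 over all windows tested. For tested windows of autosomal protein-coding genes the median ratio was 0.622. Among the 19 member windows with a ratio of at least 0.6 and at least 50% GC, 10 (52.6%) were over 10% in both libraries, against 983 (15.4%) of 6363 such windows of autosomal protein-coding genes. Their medians were 12.4% and 11.2%, against 1.31% and 1.35%. These are descriptions of the listed genes, with no test.

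**Figure D1:**
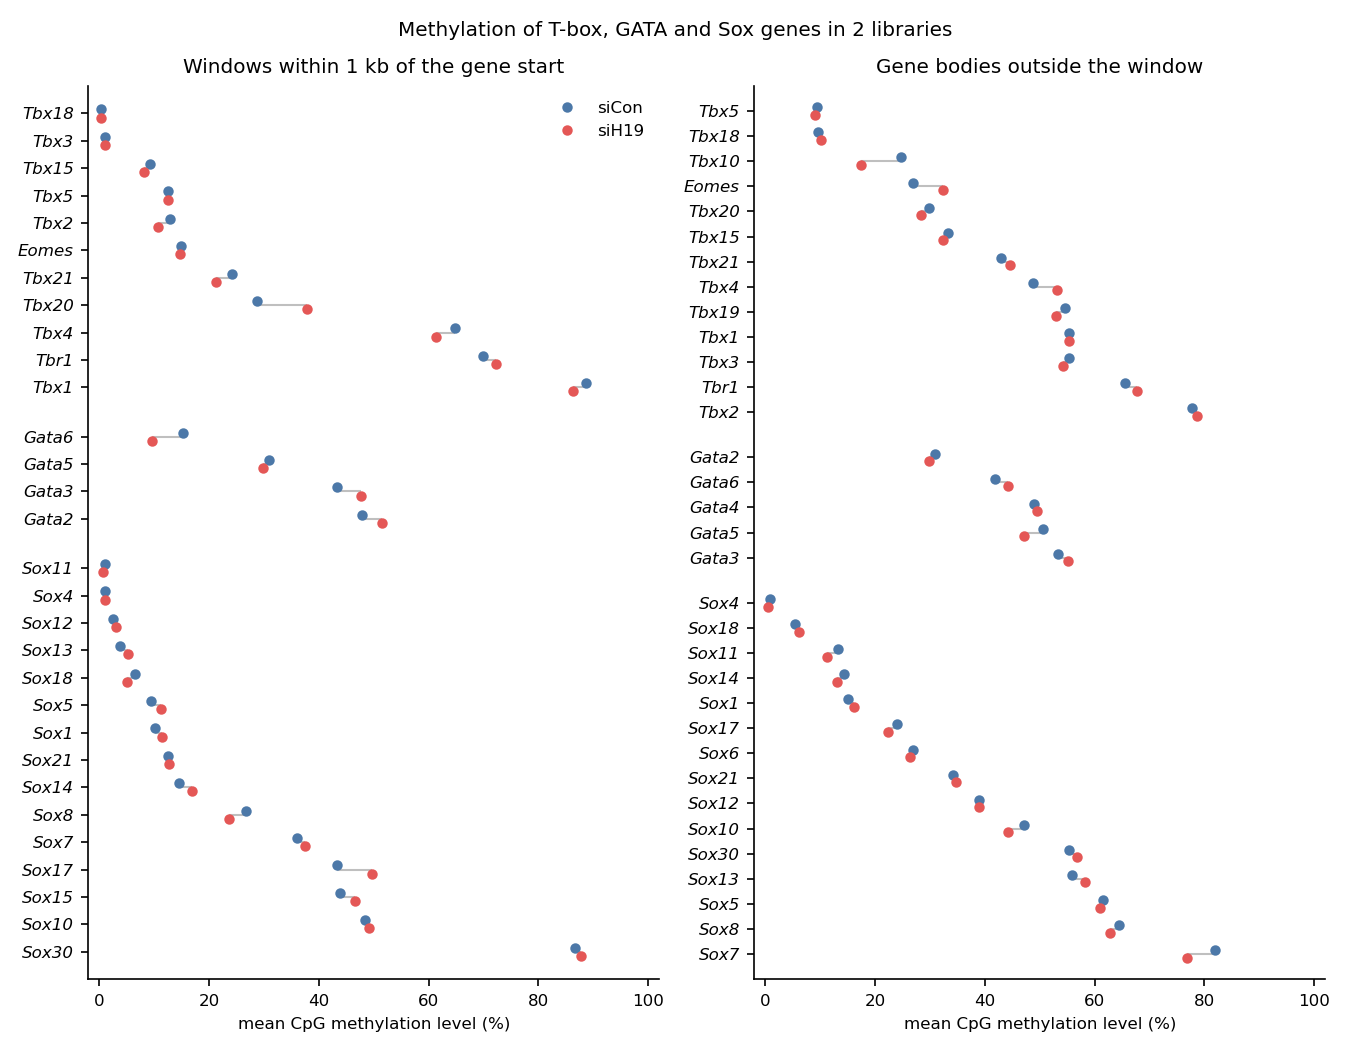
Mean CpG methylation (%) of each tested member in siCon (blue) and siH19 (red), for start windows on the left and gene bodies on the right, grouped as T-box, GATA and Sox from top to bottom and ordered by the siCon level. A grey line joins the 2 libraries of a gene. Windows run from 0.216% at Tbx18 to 88.7% at Tbx1 in siCon, and the points of a gene lie close together compared with the spread between genes.

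Windows near both ends of that range are shown as sequence because each is dense in CpG, with observed to expected ratios of 0.781 at Sox30 and 0.967 at Sox11. Sequences are from GRCm38, read 5′ to 3′ on the strand of the gene, and capitals mark the CpGs counted, that is covered in both libraries and outside the cut sites. Sox30, a Sox gene of the male germ line, and Sox11, a SoxC gene of neural progenitors, both have many CpGs in the 140 bases shown. The 27 counted CpGs of Sox30 averaged 84.6% in siCon and 87.4% in siH19, and the 21 of Sox11 averaged 0.524% and 0.955%.
Sox30, chr11:45980342-45980481, plus strand: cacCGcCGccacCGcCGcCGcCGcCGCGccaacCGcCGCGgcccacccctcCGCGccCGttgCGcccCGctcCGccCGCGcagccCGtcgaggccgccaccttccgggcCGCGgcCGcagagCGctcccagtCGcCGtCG
Sox11, chr12:27341761-27341900, minus strand: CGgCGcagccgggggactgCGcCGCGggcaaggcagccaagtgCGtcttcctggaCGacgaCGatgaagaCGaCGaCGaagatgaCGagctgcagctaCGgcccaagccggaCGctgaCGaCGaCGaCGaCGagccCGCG

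A boundary between the 2 states was seen within the neighbourhood of Tbx3, a repressor needed in limb, mammary gland and the conduction system of the heart. The 7 counted CpGs of a stretch from position −1888 to −1749 relative to its start were at 98.1% in siCon and 97.5% in siH19. The 13 counted CpGs of a stretch from position −275 to −136 were at 0.321% and 0.0574%.
Tbx3 upstream, chr5:119668781-119668920, plus strand: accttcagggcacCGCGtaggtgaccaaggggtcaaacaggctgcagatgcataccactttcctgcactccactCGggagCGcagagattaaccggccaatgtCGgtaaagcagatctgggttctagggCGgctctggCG
Tbx3 start window, chr5:119670394-119670533, plus strand: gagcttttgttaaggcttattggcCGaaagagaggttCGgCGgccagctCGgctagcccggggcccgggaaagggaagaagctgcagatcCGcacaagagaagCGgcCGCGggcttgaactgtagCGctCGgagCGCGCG

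Tbx1, which patterns the pharyngeal arches and cardiac outflow tract, had a methylated annotated start and an unmethylated internal one. At the annotated start, the 9 counted CpGs shown were at 86.1% and 83.0%. The 22 counted CpGs shown just before the internal start, which belongs to transcript Tbx1-203 and lies 3702 bp further into the gene, were at 0.990% and 2.53%.
Tbx1 annotated start, chr16:18590437-18590576, minus strand: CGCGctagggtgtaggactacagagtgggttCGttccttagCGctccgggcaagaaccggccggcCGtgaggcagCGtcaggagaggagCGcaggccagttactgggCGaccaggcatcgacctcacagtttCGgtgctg
Tbx1 internal start, chr16:18586973-18587112, minus strand: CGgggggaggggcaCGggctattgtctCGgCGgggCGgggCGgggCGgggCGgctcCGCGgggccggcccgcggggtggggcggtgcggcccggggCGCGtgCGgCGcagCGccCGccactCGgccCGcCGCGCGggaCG

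Among T-box genes, the low windows were those of Tbx18, Tbx3 and Tbx15. Tbx18, of the epicardium and sinus node, was at 0.216% in siCon and 0.307% in siH19 over 42 cytosines, and none of them reached 10% in either library. Tbx3 was at 1.05% and 0.990% over 106 cytosines. Tbx15, which acts in the skeleton and in fast muscle fibres, was at 9.21% and 8.14% over 32. The next group lay a little above 10%. Tbx5, of the forelimb and heart, was at 12.5% and 12.6%, Tbx2, a close relative of Tbx3, at 12.9% and 10.7%, and Eomes, of early mesoderm and cytotoxic lymphocytes, at 14.9% and 14.7%. Tbx21, the T helper 1 factor T-bet, was at 24.2% and 21.3%, and Tbx20, of the heart, at 28.6% and 37.9%. The 3 most methylated T-box windows belonged to Tbx4, of the hindlimb, at 64.9% and 61.4%, to Tbr1, of deep cortical neurons, at 69.8% and 72.2% over only 6 cytosines at a start where no basic transcript begins, and to Tbx1 at 88.7% and 86.3%. Pooled over its reads, the Tbx1 window was at 90.9% (Wilson 95% interval 88.9 to 92.6) in siCon and 87.7% (85.6 to 89.6) in siH19. Such intervals cover counting error only and are too narrow even for that. A read over several cytosines was counted at each, and PCR copies of a molecule could not be recognised. The windows of Tbx6, of presomitic mesoderm, Tbx10 and Tbx19, of pituitary corticotrophs, were too sparse to test. Their 4, 2 and 4 cytosines averaged 45.0% and 55.6%, 3.57% and 6.61%, and 95% and 98.1%.

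All 4 tested GATA windows were at intermediate levels in siCon, although no basic transcript begins at the starts used for Gata3 and Gata6. Further starts of Gata2 and Gata3, given below, were under 10% in both libraries. Gata6, of heart and endoderm, was at 15.1% in siCon and 9.54% in siH19 over 11 cytosines. Gata5, of the same tissues, was at 30.9% and 29.8% over 96. Gata3, the T helper 2 factor, was at 43.3% and 47.6% over 18, and Gata2, of blood stem cells, at 47.9% and 51.5% over 70. The levels at Gata2 were not an average of fully methylated and unmethylated CpGs, since 85.7% of its cytosines in siCon and 81.4% in siH19 lay between 20% and 80%. At Gata5 the corresponding shares were 45.8% and 51.0%. The window of Gata4, of heart and endoderm, held 2 cytosines, at a mean of 16.7% and 33.3%.

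Sox genes are ordered here by subgroup. In SoxB, Sox1, of neural progenitors, was at 10.1% and 11.4%, and its repressor relatives Sox21 and Sox14 were at 12.4% and 12.7% and at 14.6% and 16.8%. All 3 SoxC genes, which act in progenitor cells of many tissues, were low, with Sox11 at 0.946% and 0.645%, Sox4 at 1.02% and 0.965%, and Sox12 at 2.44% and 2.98%. These 3 windows held 191, 82 and 248 cytosines. In SoxD, Sox13 was at 3.70% and 5.26% and Sox5, of cartilage, at 9.36% and 11.2%, while Sox6, which represses slow fibre genes in skeletal muscle, had no covered cytosine in its window. In SoxE, Sox8 was at 26.7% and 23.6%, and Sox10, of neural crest and glia, at 48.5% and 49.1%. The SoxF genes, which act in endothelium, differed among themselves. Sox18 was at 6.45% and 5.04%, Sox7 at 36.0% and 37.6%, and Sox17, also an endoderm factor, at 43.3% and 49.6%. Sox15, found in muscle precursors, was at 43.8% and 46.5% over 9 cytosines. Sox30 was the most methylated Sox window, at 86.6% and 87.8% over 149 cytosines, of which 56.4% in siCon and 57% in siH19 were above 90%.

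Levels differed sharply along several of these genes, in both libraries. Tbx2 stayed between 3.11% and 5.63% in siCon, and between 2.30% and 4.63% in siH19, from 250 to 1000 bp after its start. In the next bin of 250 bp it was at 76.7% and 75.7%. Tbx18 was at 91.7% and 96.2% in the bin from 2000 to 1750 bp before its start and at 0% and 0.440% in the bin from 500 to 750 bp after it. No bin from 1500 bp before its start to 500 bp after it had enough cytosines, so the boundary was not located. Sox21 had a more gradual slope, from 4.14% and 3.06% at 250 to 500 bp to 56.3% and 54.7% at 2500 to 2750 bp. Gata5 went from 12.4% and 13.4% at the start to 41.0% and 40.2% at 750 to 1000 bp. Sox30 was between 84% and 97.5% in siCon, and between 85.6% and 94.0% in siH19, in all 5 bins with enough cytosines.

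**Figure D2:**
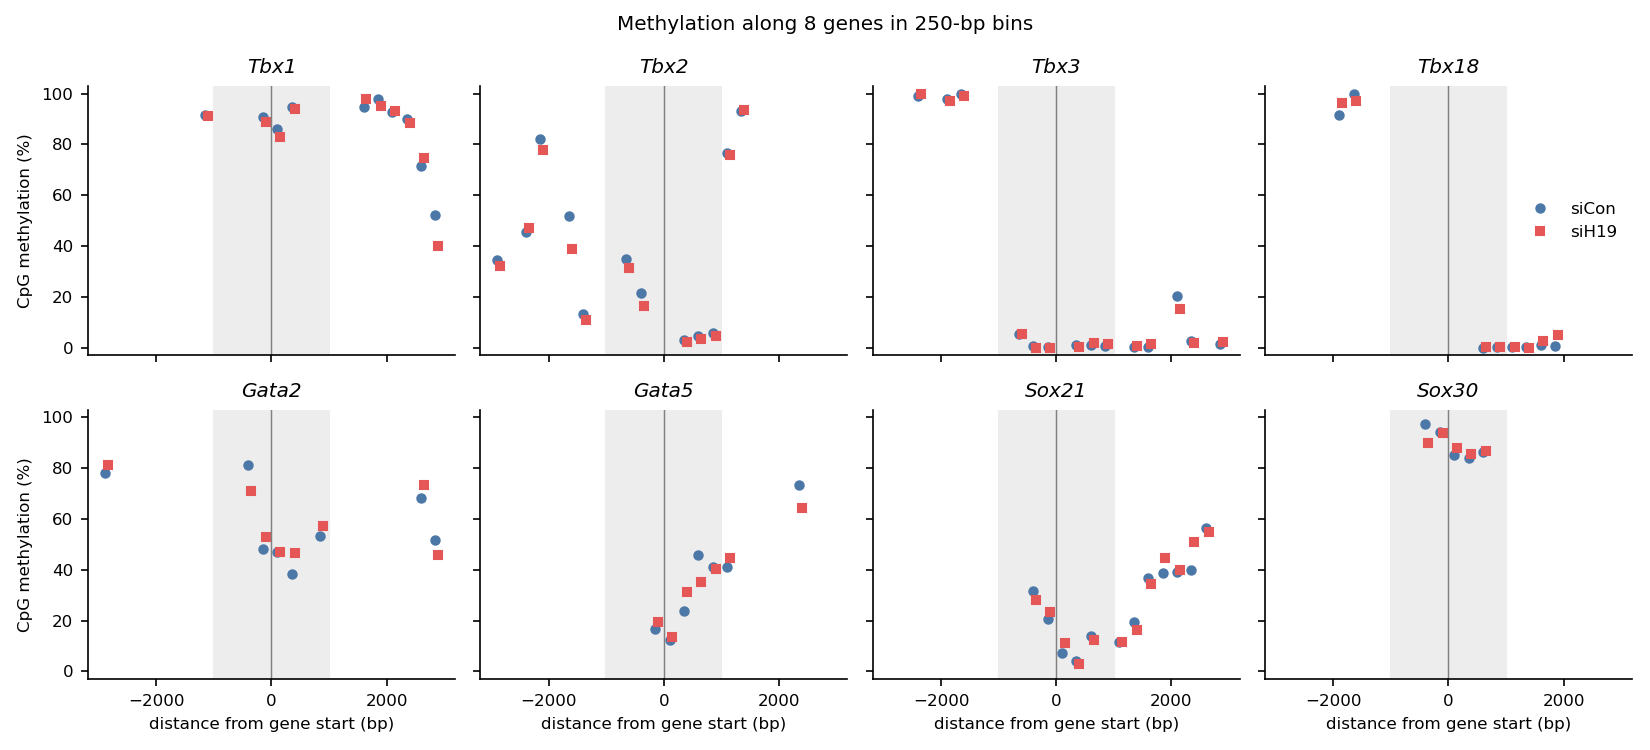
Mean CpG methylation (%) in bins of 250 bp against distance from the annotated gene start (bp) for 8 members, with siCon as blue circles and siH19 as red squares. Grey shading marks the start window, and bins with fewer than 3 covered cytosines are not drawn. Tbx2 switches from low to high between adjacent bins after its start. Tbx3 and Tbx18 have high bins upstream and low bins nearer the start or after it, with no bin drawn between them. Sox30 stays high, and the symbols of the 2 libraries lie near each other.

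The annotated gene start was not the only start for several members. At 8 members (Tbx5, Tbx15, Tbr1, Gata3, Gata4, Gata6, Sox5 and Sox6) no transcript of the basic annotation begins at the outermost gene start used for the window. Where a further transcript start lay more than 2 kb away and was covered, it was lower than the gene start at Tbx1, Tbx4, Tbx15, Tbr1, Gata2 and Gata3 in both libraries. The gap was widest at 3 of these genes. Tbx1 went from 88.7% to 3.98% in siCon and from 86.3% to 5.10% in siH19. Gata2 went from 47.9% to 7.37% and from 51.5% to 7.84% at a start 4443 bp into the gene. Gata3 went from 43.3% to 3.13% and from 47.6% to 4.37% at a start 11434 bp into the gene. The difference was smaller at Tbx15, where the further start was at 0.459% and 0.595%. Tbx4 was at 56.3% and 58.6% and Tbr1 at 60.9% and 61.7% at these further starts. The nearest basic transcript start of Tbr1, 1523 bp into the gene, was lower, at 37.0% and 43.5% over 42 cytosines, and that of Tbx5, 1995 bp into the gene, was at 2.80% and 2.36% over 30. At Gata4 the further start, 26421 bp into the gene, was at 16.3% and 16.8% over 92 cytosines, and at Sox6 the one 7749 bp into the gene was at 21.3% and 19.6% over 22.

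**Figure D3:**
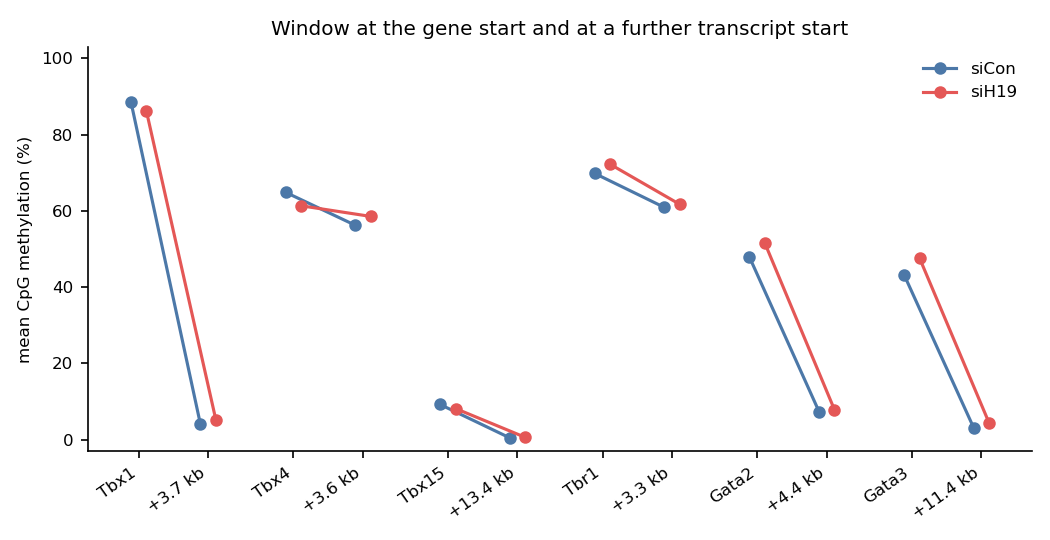
Mean CpG methylation (%) in the window around the annotated gene start (left point of each pair) and around a further transcript start (right point, labelled with its distance in kb) for 6 members, with siCon in blue and siH19 in red. Tbx1, Gata2 and Gata3 lie under 10% at the further start in both libraries, while Tbx4 and Tbr1 stay above 50%.

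Gene bodies were less methylated than those of other genes in median, at 41.8% in siCon and 44.2% in siH19 against 57.2% and 57.7% over the 18018 bodies tested. Over the 13571 tested bodies of autosomal protein-coding genes the medians were 61.5% and 61.9%. Bodies of forkhead and Hox cluster genes also had lower medians than all genes. These were 49.2% and 52.4% over 35 forkhead bodies, and 24.9% and 25.5% over 32 Hox bodies. Member bodies ranged in siCon from 0.867% at Sox4 to 81.8% at Sox7. Of the 29 members with both regions tested, the body exceeded the window at 18 (62.1%) in each library, whereas it did so at 86.8% of 12089 genes in siCon and 87.0% in siH19. The body was above the window by more than 20 percentage points in both libraries at 10 members, Tbx2, Tbx3, Tbx15, Gata6, Sox5, Sox7, Sox8, Sox12, Sox13 and Sox21 (34.5%), against 8512 (70.4%) of all genes. Tbx2 was the widest of these, with a body at 77.7% and 78.6%. The window was above the body by that much in both libraries at 2 members (6.90%), against 543 (4.49%) of all genes. They were Tbx1 and Sox30, whose bodies were at 55.3% and 55.4% and at 55.3% and 56.8%. Covered body cytosines of the members lay mostly in CpG island sequence (78.5%), and the matching share over all genes was not computed. Member body cytosines inside such sequence averaged 39.1% and 39.6%, and those outside 53.0% and 52.7%.

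**Figure D4:**
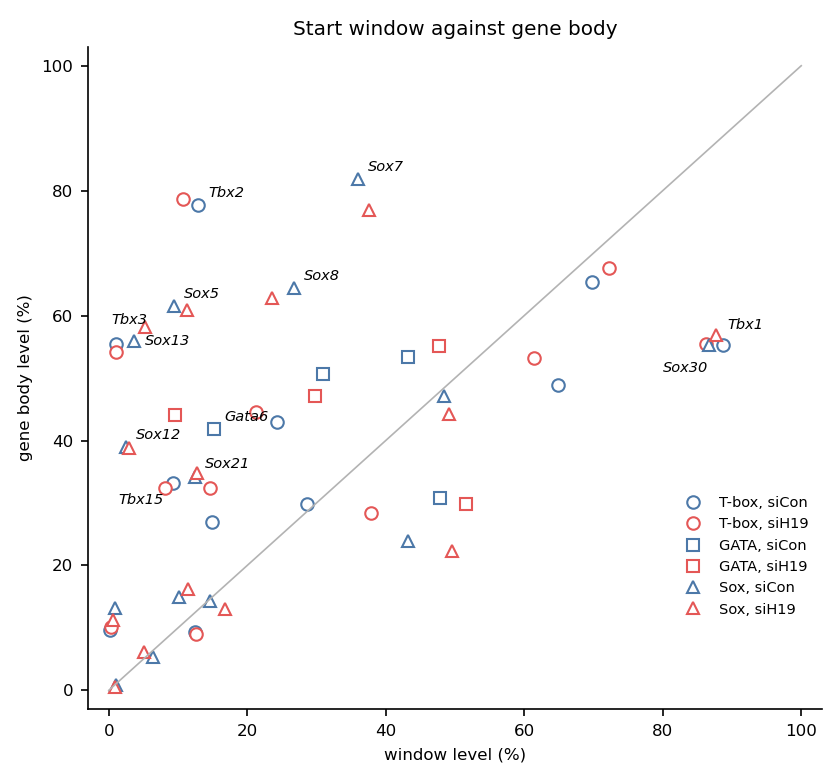
Gene body level (%) against start window level (%) for the 29 members with both regions tested, in siCon (blue) and siH19 (red), with circles for T-box, squares for GATA and triangles for Sox genes. The line marks equal levels, and names are given where the siCon levels differ by more than 20 points. Points above the line outnumber those below, and Tbx1 and Sox30 lie at the lower right.

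The comparison between the libraries asked whether methylation of these genes differed after knockdown of H19. No member window and no member body met the call used here, an adjusted p under 0.05 by the Cochran-Mantel-Haenszel chi-square test with each cytosine as a stratum together with a difference of at least 10 points. Over all genes, 0.657% of windows and 0.294% of bodies met it. With the quasi-binomial test, which takes the spread between cytosines into account, the call was again met by no member, and by 0.0976% of all windows and 0.0111% of all bodies. The median difference, siH19 minus siCon, was 0.187 points over member windows and 0.0889 over all windows, with 17 member windows higher and 13 lower. Over member bodies it was −0.277 points against 0.191, with 15 higher and 18 lower. At an unadjusted p under 0.05 there were 7 windows, those of Tbx2, Tbx21, Gata5, Sox11, Sox14, Sox17 and Sox18, and 10 bodies, those of Eomes, Tbr1, Tbx3, Tbx4, Tbx18, Gata3, Gata6, Sox1, Sox11 and Sox17. Over all genes, 21.3% of windows and 13.1% of bodies were under that p. At the Gata5 window the test and the difference of means had opposite signs. Without the size condition, 2 windows and 1 body passed the adjusted p, where 7.39% of all windows and 1.4% of all bodies did.

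The first of these was the window of Sox17. It rose from 43.3% to 49.6%, by 6.34 points, over 34 cytosines on 5 restriction fragments (chi-square adjusted p = 0.0339). Pooled over reads it was at 43.7% (40.3 to 47.1) in siCon and 52.4% (48.8 to 56.0) in siH19. Both strands were higher in siH19, by 7.72 points on the plus strand and 4.95 on the minus strand. A non-coding transcript, Gm37587, overlaps this window on the other strand. With 1 cytosine kept per fragment and strand the difference was 14.9 points and the adjusted p 0.228, and the quasi-binomial test gave an adjusted p of 0.141.

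Tbx2 was the second. Its window fell from 12.9% to 10.7%, a difference of −2.20 points over 74 cytosines on 7 fragments (chi-square adjusted p = 0.0350), with −3.07 points on the plus strand and −1.38 on the minus strand. The reads pooled to 14.3% (13.0 to 15.6) and 10.6% (9.37 to 12.1). A processed transcript, 2610027K06Rik, runs from the same window in the opposite direction. The quasi-binomial test gave an adjusted p of 0.140. With 1 cytosine per fragment and strand the difference was −2.25 points with a chi-square adjusted p of 0.631. The body of Gata6 was the remaining case, rising from 41.8% to 44.2%, by 2.35 points, over 219 cytosines on 26 fragments (chi-square adjusted p = 0.00111). The difference was 2.17 points on its plus strand and 2.53 on its minus strand. With 1 cytosine per fragment and strand it was 3.57 points with a chi-square adjusted p of 0.115. The quasi-binomial test gave an adjusted p of 0.0473. Pooled over reads the body was at 38.3% (37.1 to 39.5) in siCon and 44.9% (43.8 to 45.9) in siH19, a difference of 6.56 points.

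**Figure D5:**
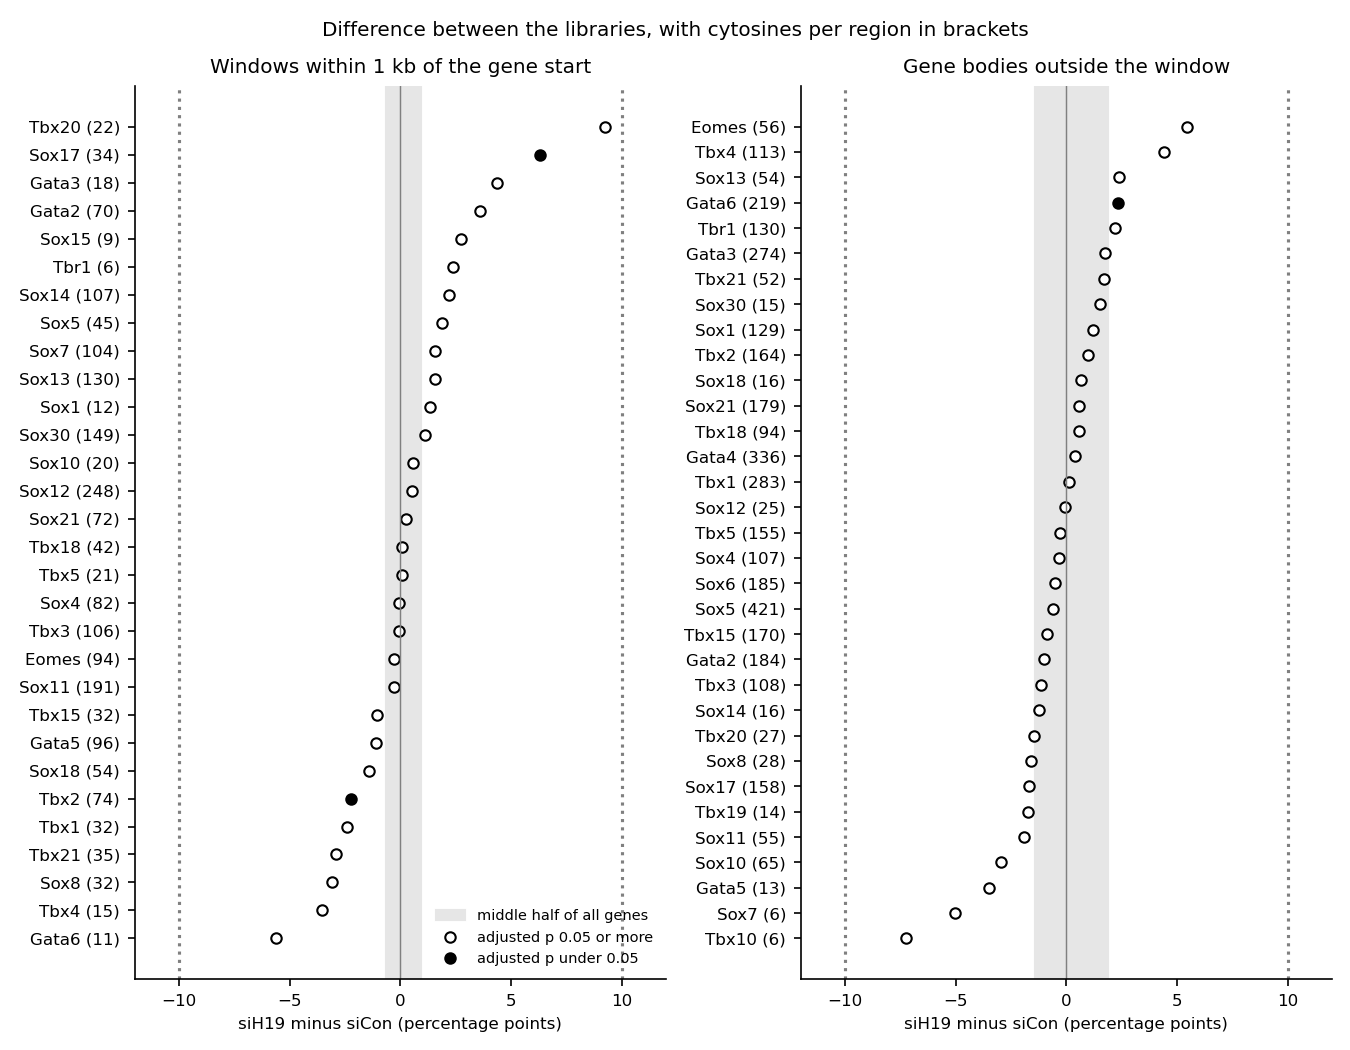
Difference in mean CpG methylation, siH19 minus siCon (percentage points), for each tested member window (left) and body (right), ordered by size, with the number of covered cytosines in brackets. Filled points have an adjusted p under 0.05, dotted lines mark 10 points, and the grey band is the middle part of all genes between their quartiles. No member crosses a dotted line, and the widest differences include regions with few cytosines.

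Other large differences among windows with at least 10 covered cytosines did not pass the adjusted p. Tbx20 had the widest, from 28.6% to 37.9% or 9.26 points over 22 cytosines (chi-square adjusted p = 0.261), with 14.0 points on the plus strand and 2.45 on the minus strand. Gata3 differed by 4.37 points (chi-square adjusted p = 0.766). On the lower side, Gata6 differed by −5.61 points over 11 cytosines (chi-square adjusted p = 0.664), Tbx4 by −3.53 (adjusted p = 0.910) and Sox8 by −3.08 (adjusted p = 0.368). At Tbx4 the reads pooled to a higher level in siH19, 75.1% against 67.4%, so its direction depended on how cytosines were weighted. Considering all members, the direction was the same on both strands in 20 of the 28 windows that had enough cytosines on each, 11 higher and 9 lower. The matching share over all windows was not computed, and both strands of a window come from the same library.

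Among bodies with at least 10 covered cytosines, Eomes differed most on the higher side, from 26.9% to 32.4% or 5.44 points over 56 cytosines (chi-square adjusted p = 0.0988), with 4.69 and 6.15 points on the plus and minus strands. Tbx4 went from 48.8% to 53.2%, 4.39 points over 113 cytosines (chi-square adjusted p = 0.0515), and Sox13 differed by 2.36 points (adjusted p = 0.810). On the lower side were Gata5 at −3.47 points over 13 cytosines (chi-square adjusted p = 0.992), Sox10 at −2.98 (adjusted p = 0.968) and Sox11 at −1.94 (adjusted p = 0.241). The strands of Gata5 went opposite ways, at −13.4 and 12.4 points. Pooled over reads, the direction turned at 4 of these bodies, with Tbx4 at 46.4% and 45.8%, Sox13 at 59.4% and 56.8%, Gata5 at 45.8% and 53.1% and Sox10 at 37.0% and 43.8%. Wider lower differences, of −7.25 points at Tbx10 and −5.02 at Sox7, rested on 6 cytosines each. For the body of Tbx1 the result differed with the weighting of cytosines. Its reads pooled to 46.4% (45.2 to 47.6) in siCon and 65.4% (64.3 to 66.4) in siH19, while the mean over its 283 cytosines was 55.3% and 55.4%. The bodies of Sox8 and Sox12 likewise pooled to 63.8% and 45.2% and to 46.2% and 30.7%, with cytosine means that differed by −1.59 and −0.0719 points. Direction was counted as the same on both strands at 15 of 30 bodies. That count includes Sox30, whose plus strand was at 84% in both libraries and so had no direction. The matching share over all bodies was not computed.

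At single cytosines, none of the 5832 in member windows and bodies had an adjusted p under 0.05 by Fisher's exact test, where 0.00648% of all cytosines did. The smallest unadjusted p was 8.31e-05, in the body of Gata6, with an adjusted p of 0.25. At an unadjusted p under 0.05 there were 56 in windows (2.84%) and 154 in bodies (3.99%), against 2.53% of all cytosines. A strong change, with an unadjusted p under 0.05 and a difference of at least 33 points, was met by 21 window cytosines (1.06%), 13 higher and 8 lower, and by 51 body cytosines (1.32%), 25 higher and 26 lower. Over all cytosines the share was 0.986%, with 0.519% higher and 0.467% lower. The opposite strand of the same CpG, where covered, moved the same way at 5 of 16 strongly changed window cytosines and 11 of 35 in bodies. The remainder include opposite strands with no difference between the libraries. The matching share over all strongly changed cytosines was not computed.

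In windows, 2 strongly changed CpGs had at least 10 reads on each strand in each library and the same direction on both. They are shown with their surroundings as the window CpGs that met these conditions, and in each the opposite strand differed little between the libraries. At Sox10, the CpG at chromosome 15 position 79166156, 916 bp upstream of the start, went on its plus strand from 52.9% of 34 reads to 15.6% of 64 (Fisher's exact test, p = 0.000163, adjusted p = 0.341), while the minus strand was at 35.7% and 30.2% (Fisher's exact test, p = 0.399). At Sox7, the cytosine at chromosome 14 position 63944275, 602 bp downstream of the start, went on the minus strand from 40.0% of 20 reads to 82.9% of 70 (Fisher's exact test, p = 0.000347, adjusted p = 0.463). Its plus strand was at 72.3% and 75.2% (Fisher's exact test, p = 0.723).
Sox10 upstream, chr15:79166120-79166179, minus strand: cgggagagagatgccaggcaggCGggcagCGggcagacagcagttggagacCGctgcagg
Sox7 downstream, chr14:63944247-63944306, plus strand: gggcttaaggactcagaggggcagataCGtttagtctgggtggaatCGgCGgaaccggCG

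Bodies held 7 such CpGs, in Gata3, Sox1, Sox5, Sox6, Tbx2 and, at 2 positions, Sox21. At the Sox21 position 1588 bp after its start the plus strand went from 41.7% to 76.2% and the minus strand went from 50% to 62.5%. At 1365 bp the plus strand went from 37.5% to 0% of 10 reads and the minus strand went from 31.6% to 21.4%. Tbx2, at 4801 bp, went from 53.3% to 88.9% with 81.5% and 84.8% on the other strand. Gata3, at 13036 bp, went from 20% to 55% with 36.0% and 47.1% on the other strand. Sox1, Sox5 and Sox6 differed on 1 strand by −33.3, −35.6 and −35.7 points. In each of these CpGs the opposite strand differed by 12.5 points or less.

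The spread between the strands of a CpG within a library served as the nearest measure of technical error. In member windows, the strands of 897 CpGs differed at p under 0.05 in 3.57% of CpGs in siCon and 2.68% in siH19, and the same test between the libraries gave 1.90% on the plus strand and 3.34% on the minus strand. Mean absolute differences were 6.78 and 6.49 points between strands and 6.10 and 6.49 between libraries. In member bodies, over 1659 CpGs, they were 8.44 and 7.35 between strands and 8.0 and 7.34 between libraries. The share of body CpGs at p under 0.05 by Fisher's exact test was 3.74% between strands in each library. Between libraries it was 4.04% on the plus strand and 3.80% on the minus strand. Over all 755414 CpGs with both strands covered, the shares were 3.51% and 3.28% between strands and 2.55% and 2.52% between libraries.

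Genes that work with these factors were examined in the same tests, from a list of 22 cofactors and targets. Of the 16 windows tested, 10 were higher and 6 lower, where 10535 of the 19476 windows of all genes were higher. At the adjusted p, which 7.39% of all windows passed, there were 2, both higher, without reaching 10 points. They were Hand2, a partner of GATA factors in heart and limb, from 21.3% to 31.0% (9.65 points, chi-square adjusted p = 1.35e-06), and Nkx2-5, which acts with Tbx5 and Gata4 in the heart, from 17.7% to 25.1% (7.39 points, adjusted p = 0.0284). The GATA cofactors Zfpm1 and Zfpm2 were at 0.924% and 0.814% and at 4.58% and 5.09%. None of the 18 bodies tested passed, where 1.4% of all bodies did, and 9 were higher and 9 lower. The bodies of Hand2 and Nkx2-5 differed by −4.15 and −2.11 points, opposite to their windows.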

How the data were processed

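Per the labels, 1 library each was made from siCon and siH19 myotubes, 48 h after transfection, and grouped by the siRNA named in the sample characteristics. The authors aligned reads with Bismark (version not given in the sources used here) in non-directional mode and trimmed filled-in nucleotides, and the submitters' processing notes name mm10 and bcl2fastq 1.8.4. Removal of duplicates was not stated. The deposited values were raw counts of methylated and total reads per CpG cytosine and strand, in a text field of another unit than a plain number. The deposited score, the methylated share on a scale to 1000 by the authors, was used only to check parsing and matched in 100% of entries. Values were not normalised between libraries.

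All 6041258 positions on assembled chromosomes were CpG cytosines of GRCm38. Genes came from the GENCODE basic annotation of that build. Cytosines needed 5 reads in each library, and 54.2% of 3413804 lay outside CCGG and TCGA. Cytosines were tested by two-sided Fisher's exact tests and regions of at least 5 cytosines by two-sided Cochran-Mantel-Haenszel tests without continuity correction, each with Benjamini-Hochberg adjustment over all cytosines or genes. Reads over several cytosines were counted at each, so p-values of regions were too small and intervals of pooled levels too narrow. CpG island sequence was the union of 200-bp stretches whose GC content reached 50% and whose CpG count reached 0.6 of that expected from base composition. Python 3.11.15, numpy 2.4.6, scipy 1.17.1 and pandas 2.3.3 were used, and the scripts were tested on simulated data. Full values were given for members with a window over 10% in both libraries, for the 3 widest differences in each direction with at least 10 cytosines, and for strongly changed CpGs with the same direction on both strands. The members and lists were chosen with earlier results of these data known. Alternatives changed the read minimum, cut sites, strands, repeats, deepest cytosines, window and test. The use of 1 cytosine per fragment and strand, the deepest over both libraries, was added after seeing the data.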

Additional observations from a re-analysis of the deposited data

How the results depend on the processing

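No paired analysis was possible because each group had 1 library. For the same reason no library could be left out, and the depth of single cytosines limits what could be detected. The count of called member windows and bodies stayed at 0 except that 3 bodies were called when reads were summed per region and tested by Fisher's exact test, and that 2 windows and 1 body passed with no minimum difference. Over all genes, called windows numbered 128 and called bodies 53. These became 491 and 1562 with summed reads, 1433 and 250 with no minimum difference but the direction of the test kept, 19 and 2 with the quasi-binomial test, 11 and 9 with 1 cytosine per fragment and strand, and the bodies 30 with cut sites included.

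The median siCon level of member windows was 32.9% with cut sites included, 20.5% with 1 cytosine per fragment and strand, 18.0% around every transcript start, 15.9% within 500 bp, 14.2% at 10 reads, and 14.6% read-weighted or with strands summed. In siH19 it was, for the first 4 of these, 30.0%, 22.2%, 16.8% and 14.7%, then 15.1% read-weighted and 15.2% with strands summed. The median window difference was 1.02 points with cut sites and 1.26 with 1 cytosine per fragment and strand. The median body difference turned to 0.487 points at 10 reads and 0.198 with cut sites. The 72 strongly changed member cytosines, 1.23% of those tested, became 123 (1.41%) with cut sites and 42 (0.897%) at 10 reads. They became 25 (1.70%) with 1 cytosine per fragment and strand and 24 (0.713%) with strands summed. Matching shares over all cytosines were not computed for these alternatives. The causes of these shifts were not tested.

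Single directions turned at several regions. With read-weighted levels or summed reads, the bodies of Gata5 (7.27 points), Sox10 (6.75), Sox13 (−2.55) and Tbx4 (−0.621) and the window of Tbx4 (7.76) reversed. The Gata5 body was at 0.408 with cut sites, the Gata6 window at 0.443 and the Sox10 body at 0.902 at 10 reads, the Sox8 window at 0.219 with 1 cytosine per fragment and strand, and the Tbx4 window at 0.816 around every transcript start. The Sox17 and Tbx2 windows also lost the adjusted p with cut sites (0.0871 and 0.275) and within 500 bp (0.191 and 0.0797). In contrast, the Eomes body passed it with cut sites, at 4.81 points (chi-square adjusted p = 0.0214), short of the 10 points of a call. Over the alternatives, named differences that kept their direction gained the adjusted p 7 times and lost it 9 times.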

Other observations

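Forkhead and Hox cluster genes, the other large families of developmental regulators examined, had start windows at levels like those of the T-box, GATA and Sox genes, as values side by side with no test. The 38 forkhead windows had a median of 13.5% in siCon and 15.8% in siH19, and 22 (57.9%) were over 10% in both libraries. The 34 Hox windows had medians of 19.2% and 22.9%, and 19 (55.9%) were over 10% in both. Among the Hox windows 1 was called, where 0.657% of all windows were. At the adjusted p alone, which 7.39% of all windows passed, 3 Hox windows were higher and 2 lower, and no forkhead window passed. By family, the median window was 14.9% and 14.7% for T-box, 37.1% and 38.7% for GATA and 12.4% and 12.7% for Sox genes.

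Genes that mark cell types were read for their start windows and bodies, although methylation does not measure their RNA. Of the muscle genes, Des was at 3.89% and 4.19%, Ckm at 9.04% and 12.2%, Acta1 at 11.7% and 11.8%, Myod1 at 37.7% and 38.5% and Myog, over 6 cytosines, at 80.5% and 81.2%. Of the 8 marker gene bodies tested, 5 were higher and 3 lower in siH19. At the adjusted p, which 1.4% of all bodies passed, there was 1, without reaching the 10 points of a call. It was that of Acta1, the skeletal muscle actin, which rose from 32.1% to 40.1% (7.97 points, adjusted p = 1.80e-05 by the Cochran-Mantel-Haenszel chi-square test). Of the markers of other cell types, the windows of Pparg, of fat, and Epcam, of epithelium, were covered, at 5.26% and 5.87% and at 59.3% and 64.8%. The body of Pparg differed by −4.40 points (adjusted p = 0.176 by the same chi-square test). Adipoq, Cdh5 and Ptprc had too few covered window cytosines to test.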
